A study of Mus musculus with 6 samples.

Results

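Growth arrest and DNA-damage response genes were followed in neurons of mouse dorsal root ganglia after injury of their nerve. The set held 8 genes, listed by name and chosen with earlier results of these data known. These were the GADD45 family (Gadd45a, Gadd45b, Gadd45g), the growth-arrest effectors Cdkn1a and Btg2, and Trp53, Mdm2 and Bax of the p53 pathway. They made up 8 of the 17022 gene names and 30 of the 60744 isoforms of the deposited table, and all 8 reached a mean of 1 FPKM over the 6 libraries. The neurons were cut by laser microdissection from lumbar 3, 4 and 5 ganglia on the side of surgery. The animals were male C57Bl/6 mice, whose labels give both "adult" and an age of 4 to 6 weeks. The crush group (3 libraries) was taken 7 days after the sciatic nerve had been crushed for 10 seconds, and the sham group (3 libraries) 7 days after the nerve had been exposed for 10 seconds. No allele or agent is named for either group. Captured cells with and without an injured axon are not told apart by the labels. Nor do the labels tie each library to its own animals, and the p-values therefore cover the spread among these libraries, which may be technical.

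In dividing cells the tumour suppressor p53, encoded by Trp53, is stabilised by DNA damage and switches on genes that halt the cell cycle or start cell death. Cdkn1a encodes p21, an inhibitor of cyclin-dependent kinases, Mdm2 the ubiquitin ligase that returns p53 to low levels, and Bax a pore-forming protein of the mitochondrial outer membrane. GADD45 proteins are small stress-induced nuclear proteins that bind the kinase MAP3K4 upstream of p38 and JNK, as well as PCNA and p21, and they can be induced without p53. Sensory neurons do not divide, and Gadd45a is known from the rat as a gene induced in ganglion neurons by nerve injury.

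Values are FPKM, fragments scaled for transcript length and for all mapped fragments of the library, as deposited. They hold no read counts, and sequencing depth is not known here. The injury label was checked with Atf3, a transcription factor induced by axon injury, which stood at 153 to 196 FPKM in the crush libraries and 36.1 to 64.6 in the sham libraries. Sham 2 stood apart, correlating with the other sham libraries at r = 0.978 and 0.981 across genes, against 0.996 between sham 1 and sham 3. Of the 11 sensory neuron markers 10 were in the table, summing to 5816 to 6637 FPKM in crush and 5352 to 7274 in sham. Tubb3, Uchl1 and Prph made up most of this sum and overlapped between the groups, as did Snap25, Avil, Scn9a and Pou4f1. Rbfox3 was lower in every crush library, at 62.3 to 66.2 FPKM against 72.0 to 85.4 in sham. So were Isl1, at 34.1 to 36.2 against 41.0 to 43.4, and Scn10a, at 205 to 234 against 259 to 274. The ganglion sections also held RNA of other cells: all 11 satellite glia and Schwann cell markers were detected, summing to 1536 to 1658 FPKM in crush and 1554 to 1779 in sham. Of 13 macrophage markers 11 were in the table, none at 0 in all libraries, and their sum was 149 to 164 FPKM in crush and 68.8 to 81.8 in sham. The 8 endothelial and fibroblast markers summed to 152 to 160 FPKM in crush and 98.4 to 134 in sham. Most of that sum was the fibroblast gene Dcn, at 91.7 to 97.6 FPKM in crush and 59.8 to 85.4 in sham. Dcn, Col1a1, Lum and Pdgfra were higher in every crush library, while Col3a1 overlapped between the groups. The endothelial genes Pecam1, Cdh5 and Tek overlapped too, with ratios of means of 1.002, 1.03 and 1.19. Macrophage and connective-tissue RNA thus moved with the groups, as did the neuron markers Rbfox3, Isl1 and Scn10a. The part of such shifts in the changes below was not tested. In these bulk samples, more cells that express a gene and more RNA per cell cannot be told apart.

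The promoters of the 3 genes that rose, and of Gadd45b as the family member whose mean was lower after crush, are shown so that the letters around each start can be compared. Each is RefSeq sequence of build GRCm38.p6, 5′ to 3′ on the gene's strand, from 250 bases before to 50 after an annotated start. All 8 genes matched by symbol, with 9 promoters, 2 of them for Cdkn1a. Capitals mark matches to the p53 half-site, the cAMP response element TGACGTCA, the AP-1 site TGANTCA, the CCAAT box and TATAAA, on both strands, and no match overlapped another. The half-site is the consensus decamer RRRCWWGYYY, where R is A or G, W is A or T and Y is C or T. Only full matches were marked, so a decamer with a mismatch stays in small letters.
Gadd45a, chr6:67037358-67037657, minus strand: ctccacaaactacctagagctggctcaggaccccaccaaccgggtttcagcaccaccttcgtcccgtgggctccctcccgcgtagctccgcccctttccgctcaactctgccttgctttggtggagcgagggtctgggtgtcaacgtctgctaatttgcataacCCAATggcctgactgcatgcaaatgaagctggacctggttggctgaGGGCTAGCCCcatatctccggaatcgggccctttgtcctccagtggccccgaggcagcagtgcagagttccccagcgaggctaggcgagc
Cdkn1a, upstream start, chr17:29090729-29091028, plus strand: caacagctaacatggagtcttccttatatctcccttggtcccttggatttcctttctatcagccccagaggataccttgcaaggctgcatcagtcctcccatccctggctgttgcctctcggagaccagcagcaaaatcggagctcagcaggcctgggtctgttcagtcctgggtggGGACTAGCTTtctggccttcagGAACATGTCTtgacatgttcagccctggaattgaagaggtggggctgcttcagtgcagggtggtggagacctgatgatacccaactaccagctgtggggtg
Cdkn1a, downstream start, chr17:29093519-29093818, plus strand: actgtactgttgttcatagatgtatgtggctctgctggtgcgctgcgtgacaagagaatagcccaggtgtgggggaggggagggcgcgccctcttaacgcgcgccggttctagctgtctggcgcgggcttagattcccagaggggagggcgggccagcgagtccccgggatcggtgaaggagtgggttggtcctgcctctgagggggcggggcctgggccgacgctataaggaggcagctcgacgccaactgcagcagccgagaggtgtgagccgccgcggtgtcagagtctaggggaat
Btg2, chr1:134079106-134079405, minus strand: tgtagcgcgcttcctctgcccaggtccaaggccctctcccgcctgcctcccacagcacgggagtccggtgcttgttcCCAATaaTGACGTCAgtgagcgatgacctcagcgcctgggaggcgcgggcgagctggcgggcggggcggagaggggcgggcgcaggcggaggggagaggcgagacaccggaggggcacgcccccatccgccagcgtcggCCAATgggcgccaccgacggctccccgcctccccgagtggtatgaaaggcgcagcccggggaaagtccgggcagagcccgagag
Gadd45b, chr10:80929841-80930140, plus strand: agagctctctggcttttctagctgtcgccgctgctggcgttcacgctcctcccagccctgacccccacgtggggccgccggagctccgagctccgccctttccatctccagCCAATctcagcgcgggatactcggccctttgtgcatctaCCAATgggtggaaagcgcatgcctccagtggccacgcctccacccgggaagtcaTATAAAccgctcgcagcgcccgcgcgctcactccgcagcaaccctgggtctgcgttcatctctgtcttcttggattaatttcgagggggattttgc
The Gadd45a promoter held 1 half-site match beginning at -40 from the start and 1 CCAAT box at -86. The upstream Cdkn1a promoter held half-site matches at -73 and -51, and the downstream one held no match to any of the motifs. Btg2 held the cAMP response element at -166 with CCAAT boxes at -173 and -34, and was the most GC-rich of the 9 at 72% GC, against a median of 52.7% over all promoters. Gadd45b held CCAAT boxes at -139 and -100 and a TATAAA at -46, and no half-site. Of the genes that did not pass, Mdm2, Trp53 and Bax each held a half-site match, at -186, -75 and -201, and Gadd45g held none. A half-site was found in 8.36% of all 32851 promoters of this length, the cAMP response element in 1.79%, AP-1 in 7.81%, CCAAT in 37.4% and TATAAA in 13.6%. These matches are descriptions of letters only.

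Of the 3 GADD45 genes, Gadd45a rose after crush, and Gadd45g and Gadd45b did not pass the test. Gadd45a stood at 103, 101 and 141 FPKM in crush 1 to 3, against 49.1, 56.4 and 38.9 FPKM in sham 1 to 3. Every crush library was above every sham library, with crush 3 the highest and sham 3 the lowest. The mean was 115 ± 22.2 FPKM in crush and 48.1 ± 8.79 in sham (SD, n = 3 each), a ratio of 2.39. All log2 changes refer to log2(FPKM + 1), which understates the change of low genes, and on that scale Gadd45a rose by 1.24 with a standard error of 0.175 (limma, adjusted p = 0.0170). The call was lost without any library but sham 2: the adjusted p was 0.0761 without crush 1, 0.0622 without crush 2, 0.0561 without crush 3, 0.0633 without sham 1 and 0.0680 without sham 3, while the log2 change stayed between 1.09 and 1.32. Without sham 2 it was 1.36 (adjusted p = 0.00533).

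Gadd45g, the cytokine-induced member of the family, had 28.2, 31.0 and 40.4 FPKM in crush 1 to 3 and 19.3, 28.1 and 16.7 FPKM in sham 1 to 3. The groups did not overlap, but sham 2 lay just under the lowest crush library. The mean was 33.2 ± 6.35 FPKM in crush and 21.4 ± 5.99 in sham, and the log2 difference of 0.63 (95% interval 0.14 to 1.12) did not pass (limma, adjusted p = 0.178). Without sham 2 it passed, at 0.84 (adjusted p = 0.0168).

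Gadd45b, the member linked to transforming growth factor beta and NF-kB signalling, was scarce. It had 2.60, 2.33 and 2.56 FPKM in crush 1 to 3, against 2.84, 3.31 and 3.28 FPKM in sham 1 to 3. Here the order was the other way round, with every crush library below every sham library. The log2 difference was -0.24 (95% interval -0.43 to -0.05) and did not pass (limma, adjusted p = 0.184), nor did it pass when any 1 of the 6 libraries was left out. The authors' deposited intervals ran from 1.499 to 3.49 FPKM over the crush libraries and from 1.89 to 4.39 over the sham libraries. Of its exon bases 21.9% are shared with an unnamed locus on the same strand, which reached at most 0.129 FPKM.

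**Figure D1:**
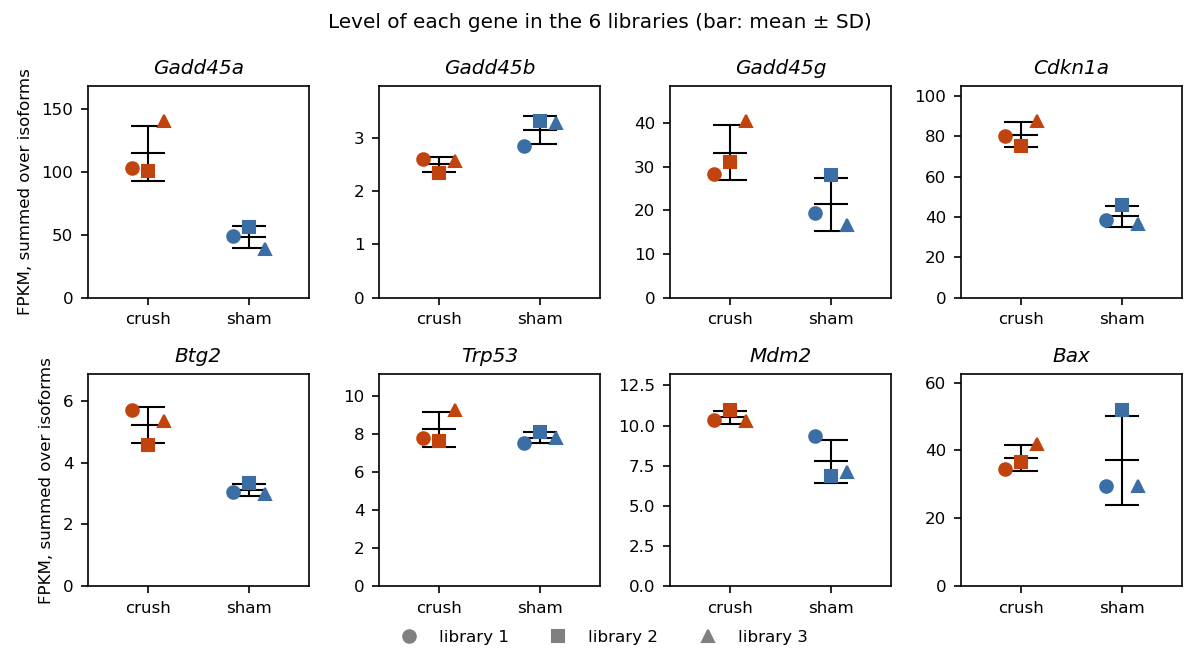
FPKM of each gene, summed over isoforms (y axis, each panel with its own scale from 0), in the crush (left, orange) and sham (right, blue) libraries; symbols tell library 1, 2 and 3, and bars give the mean ± SD. Gadd45a, Gadd45g, Cdkn1a, Btg2 and Mdm2 have all crush points above all sham points, Gadd45b has them below, and for Bax the sham 2 point at 52.0 FPKM lies above all others.

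The changes of the 3 GADD45 genes were set against each other within each library by a log2 ratio. Here and below this ratio is the difference between the log2(FPKM + 1) values of 2 genes. Because of the added 1, a library's scale can still move it, most where a gene is scarce, as Gadd45b is. The log2 ratio of Gadd45a to Gadd45b averaged 5.04 in crush and 3.55 in sham, a difference of 1.48. That of Gadd45a to Gadd45g averaged 1.76 in crush and 1.15 in sham, a difference of 0.61, and that of Gadd45b to Gadd45g averaged -3.27 in crush and -2.40 in sham, a difference of -0.87. In each of these 3 ratios the groups did not overlap. With 20 assignments of the libraries, the exact two-sided permutation p was 0.1 for each, the smallest this design allows, and 0.15 when adjusted over the 6 ratios computed, so none could pass 0.05.

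Among the effectors of growth arrest, Cdkn1a rose in every crush library. It stood at 79.9, 75.04 and 87.4 FPKM in crush 1 to 3, against 38.6, 46.0 and 36.3 FPKM in sham 1 to 3. The lowest crush library lay well above the highest sham library, which was sham 2. The mean was 80.8 ± 6.21 FPKM in crush and 40.3 ± 5.08 in sham, a ratio of 2.004 (log2 change 0.99, standard error 0.106, limma, adjusted p = 0.00832). Of the 8 genes it had the smallest adjusted p. It kept its call when any library but crush 1 was left out, and without crush 1 the change was 0.996 (adjusted p = 0.0625).

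Btg2, an antiproliferative protein that recruits the CCR4-NOT deadenylase to mRNAs, also rose, at a lower level of RNA. It had 5.71, 4.57 and 5.35 FPKM in crush 1 to 3 and 3.04, 3.33 and 2.97 FPKM in sham 1 to 3. The groups did not overlap and the sham libraries lay close together. The mean was 5.21 ± 0.582 FPKM in crush and 3.11 ± 0.192 in sham, a ratio of 1.68 (log2 change 0.59, standard error 0.0919, limma, adjusted p = 0.0224). The change stayed between 0.53 and 0.67 with 1 library left out, but the adjusted p was 0.106 without crush 1, 0.0507 without crush 2, 0.101 without crush 3, 0.0815 without sham 1 and 0.105 without sham 3. In the authors' deposited table the single Btg2 isoform had 5.39 FPKM in crush and 3.04 in sham, with a log2 fold change of 0.82 and a q-value of 5.28e-07. The authors' deposited intervals for the libraries ran from 3.18 to 7.34 FPKM in crush and from 2.02 to 4.37 in sham.

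Trp53 itself differed little. It had 7.78, 7.65 and 9.28 FPKM in crush 1 to 3 and 7.52, 8.12 and 7.79 FPKM in sham 1 to 3. The groups overlapped. The log2 difference was 0.06 with a 95% interval of -0.14 to 0.27 (limma, adjusted p = 0.774). Of its exon bases 40.7% are shared with Wrap53 on the opposite strand. Wrap53 stood at 2.19 to 2.51 FPKM in crush and 2.16 to 2.67 in sham. The libraries were not stated to keep strand, so the value of Trp53 is uncertain.

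Mdm2, which is both a target and the inhibitor of p53, had 10.3, 11.0 and 10.3 FPKM in crush 1 to 3 and 9.32, 6.88 and 7.09 FPKM in sham 1 to 3. The crush libraries lay close together, above a sham group in which sham 1 was the highest. The mean was 10.5 ± 0.405 FPKM in crush and 7.76 ± 1.35 in sham, and the log2 difference of 0.41 (95% interval 0.14 to 0.68) did not pass (limma, adjusted p = 0.116). Within libraries, the log2 ratio of Mdm2 to Trp53 averaged 0.32 in crush and -0.02 in sham, and the groups overlapped (exact permutation p = 0.2). The log2 ratio of Cdkn1a to Trp53 averaged 3.15 in crush and 2.22 in sham with no overlap, at the smallest exact p of 0.1.

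Bax, which carries out mitochondrial cell death, had 34.6, 36.6 and 41.9 FPKM in crush 1 to 3 and 29.5, 52.0 and 29.5 FPKM in sham 1 to 3. Sham 2 was the highest of all 6 libraries and the other sham libraries were the lowest. With all libraries the log2 difference was 0.07 (95% interval -0.45 to 0.59, limma, adjusted p = 0.908), and without sham 2 it was 0.34 (adjusted p = 0.0512). Against Bcl2, an inhibitor of Bax, the log2 ratio averaged 2.10 in crush and 1.84 in sham, with overlap (exact permutation p = 0.6). Of the exon bases of Bax 41.2% are shared with Dhdh on the same strand, which stood at 2.02 to 2.98 FPKM.

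In all, 3 of the 8 genes rose (Gadd45a, Cdkn1a and Btg2), 0 fell and 5 did not pass, against 2.38% of the 12289 genes tested that rose, 1.39% that fell and 3.78% that passed in either direction. In 6 of the 8 the groups did not overlap, against 26.3% of all genes tested, with 5 higher (12.2% of all genes) and 1 lower (14.1%) after crush. The median log2 difference of the 8 was 0.50, against -0.02 over all genes tested. Because the 8 genes were chosen with earlier results of these data known, these comparisons only describe them. The number that rose was 0 without crush 1, and 1, Cdkn1a, without crush 2, crush 3, sham 1 or sham 3. Calls fell over the whole table in these runs. Of all 12289 genes tested, 293 rose with all libraries, and 43 without crush 1, 69 without crush 2 and 76 without crush 3. Without sham 1 it was 98 and without sham 3 it was 64. From reference isoforms only, 1 of the 8 genes rose, against 52 of the 8465 genes tested there. Without sham 2 the number of the 8 that rose was 4, Gadd45g being the addition, against 4.94% of all genes tested that rose and 9.55% that passed in either direction.

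**Figure D2:**
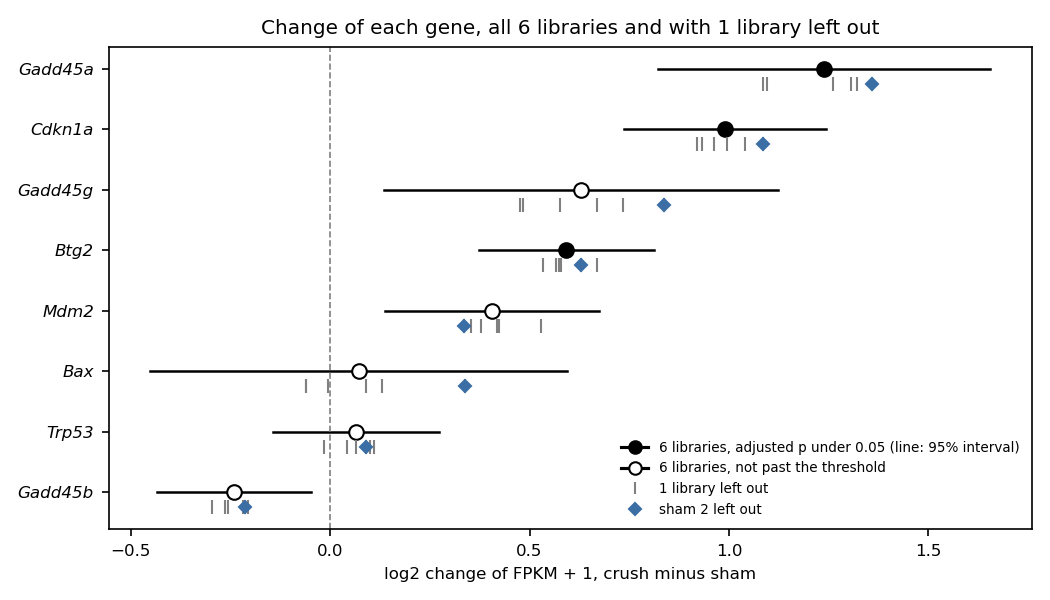
Log2 change of FPKM + 1, crush minus sham (x axis), for each gene (y axis): circles are the estimate from 6 libraries with its 95% interval, filled where the adjusted p is under 0.05, ticks the estimate with 1 library left out and diamonds that without sham 2. Gadd45a (1.24), Cdkn1a (0.99) and Btg2 (0.59) are filled, and leaving out sham 2 moves Bax from 0.07 to 0.34 and Gadd45g from 0.63 to 0.84.

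By level per transcript length, the order in crush ran from Gadd45a (115 FPKM) through Cdkn1a (80.8), Bax (37.7), Gadd45g (33.2), Mdm2 (10.5), Trp53 (8.24) and Btg2 (5.21) to Gadd45b (2.50). In crush the libraries of Bax and Gadd45g overlapped, and the other neighbours in this order did not. In sham it ran from Gadd45a (48.1 FPKM) through Cdkn1a (40.3), Bax (37.0), Gadd45g (21.4), Trp53 (7.81), Mdm2 (7.76) and Gadd45b (3.14) to Btg2 (3.11). In sham the libraries of Gadd45a overlapped those of Cdkn1a, those of Cdkn1a overlapped Bax, those of Trp53 overlapped Mdm2 and those of Gadd45b overlapped Btg2.

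The first place of Gadd45a rested on short assembled isoforms. In the authors' assembly (build mm9) Gadd45a lies on the minus strand of chromosome 6 from 66985247 to 66988438, with 6 isoforms. The full-length isoform (uc009cfc.1, 4 exons, 2104 bases) had 26.1, 24.3 and 38.5 FPKM in crush 1 to 3 and 12.1, 14.1 and 10.1 FPKM in sham 1 to 3. The other 5 each join the last exon to a short piece of the intron before it, and are 541 to 638 bases long. The most abundant of the 6, Gadd45a_j2, consists of 510 bases of the last exon and 31 bases outside the full-length isoform. It had 65.4, 66.5 and 91.7 FPKM in crush 1 to 3 and 31.98, 35.1 and 23.8 FPKM in sham 1 to 3. Both isoforms were higher in every crush library, with ratios of means of 2.45 and 2.46. The 5 short isoforms held 74.4% of the gene's summed FPKM in crush and 74.8% in sham, a difference smaller than the range among libraries. Counted as fragments per base of the longest isoform, Gadd45a had 52.0 ± 11.4 in crush and 21.6 ± 3.75 in sham, now below Cdkn1a at 72.6 ± 5.73 in crush and 36.4 ± 4.82 in sham, and its log2 change was 1.22 (limma, adjusted p = 0.0200).

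Cdkn1a (chromosome 17, plus strand, 29228025 to 29237673) has 3 isoforms that differ in their first exon and share nearly all the rest. The isoform uc008bsg.2, whose first exon has 483 bases, had 39.0, 36.2 and 43.8 FPKM in crush 1 to 3 and 19.2, 24.0 and 17.7 FPKM in sham 1 to 3. It was higher in every crush library and held about the same share of the gene, 49.1% in crush and 50.2% in sham. The isoform uc012aom.1, with the most upstream first exon, of 22 bases, had 31.7, 32.2 and 37.5 FPKM in crush 1 to 3 and 19.4, 5.28 and 18.6 FPKM in sham 1 to 3. The assembled Cdkn1a_j1, with the most downstream first exon, of 45 bases, had 9.18, 6.64 and 6.12 FPKM in crush 1 to 3, against 0, 16.8 and 0.000595 FPKM in sham 1 to 3. Among the sham libraries it was thus at or near 0 in sham 1 and sham 3, while it made up 36.4% of Cdkn1a in sham 2. With all libraries the test for a different change among the isoforms of Cdkn1a did not pass (limma diffSplice F test, adjusted p = 1). Without sham 2 it passed (limma diffSplice, adjusted p = 0.000348). That call is uncertain: in simulated data with unequal spread among the isoforms of a gene, 35.7% of diffSplice calls were false. Without sham 2 the sham values of Cdkn1a_j1 were 0 and 0.000595 FPKM. How many of all genes passed in that run was not counted. An estimate of 0 can be a failed division of shared fragments, and the exons that tell these isoforms apart are 22, 45 and 483 bases long.

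**Figure D3:**
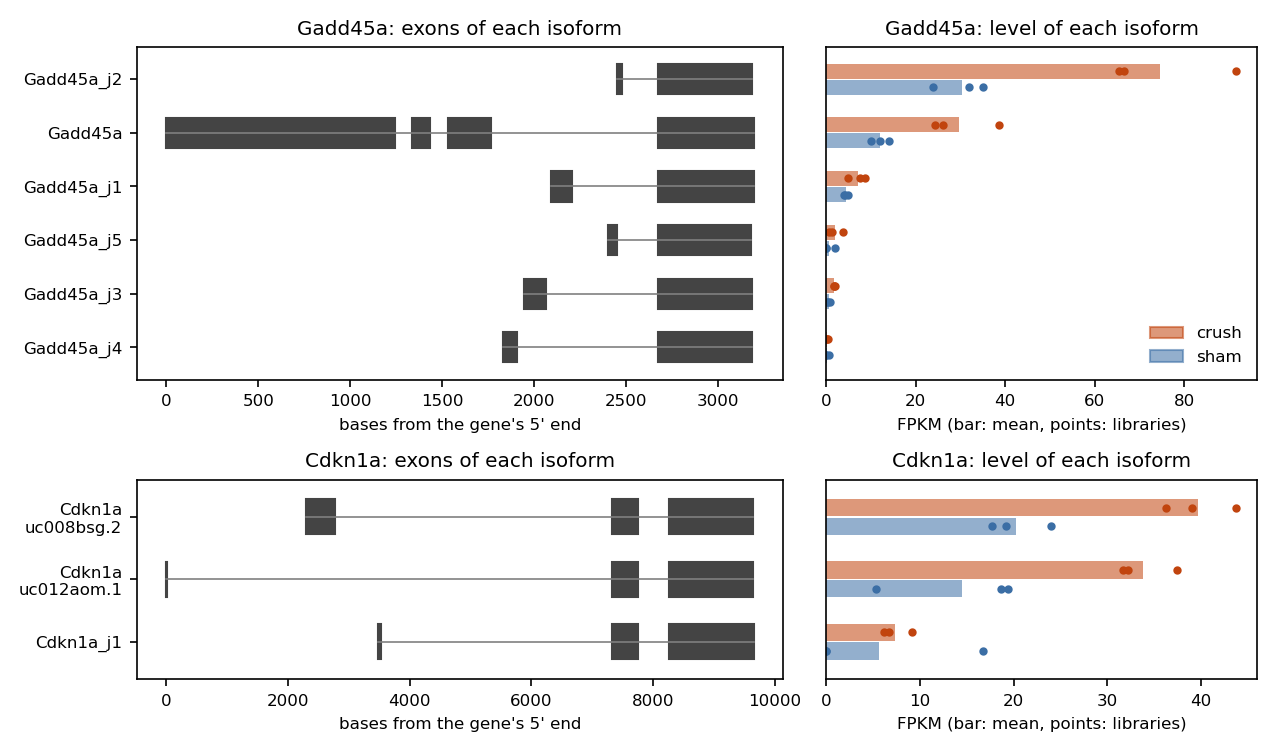
Left, exons (boxes) of each Gadd45a and Cdkn1a isoform by bases from the gene's 5′ end; right, FPKM of each isoform, with bars for the mean and points for libraries, crush above sham. Most Gadd45a FPKM sits in an isoform of 541 bases at the 3′ end, and all 3 Cdkn1a isoforms share the last 2 exons.

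In Trp53 (chromosome 11, plus strand, 69393133 to 69405378), too, the largest isoform was a short 3′ piece. Trp53_j8, of 761 bases in 2 exons, held 73.9% of the gene's FPKM in crush and 71.3% in sham, at 5.45 to 6.58 FPKM in crush and 4.95 to 6.03 in sham. The reference isoform uc007jqn.2, of 2503 bases, had 0.939 to 1.46 FPKM in crush and 1.11 to 1.47 in sham. In Bax (chromosome 7, minus strand, 52717151 to 52722339) the isoform Bax_j1, of 598 bases, held 59.3% in crush and 56.5% in sham, and it carried most of the high sham 2 value, at 31.98 FPKM in sham 2 against 16.3 and 15.6 in sham 1 and sham 3. Mdm2 (chromosome 10, minus strand, 117125943 to 117147908) had 5 isoforms, of which the reference isoform uc007hdm.1 had 3.45, 4.90 and 4.58 FPKM in crush 1 to 3 and 4.03, 1.86 and 2.92 FPKM in sham 1 to 3. Gadd45g (chromosome 13, plus strand, 51941865 to 51943846) had 82.6% of its FPKM in the reference isoform uc007qmq.2 in crush and 76.0% in sham. Btg2 (chromosome 1, minus strand, 135971893 to 135975710) and Gadd45b (chromosome 10, plus strand, 80392091 to 80394944) had 1 isoform each.

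**Figure D4:**
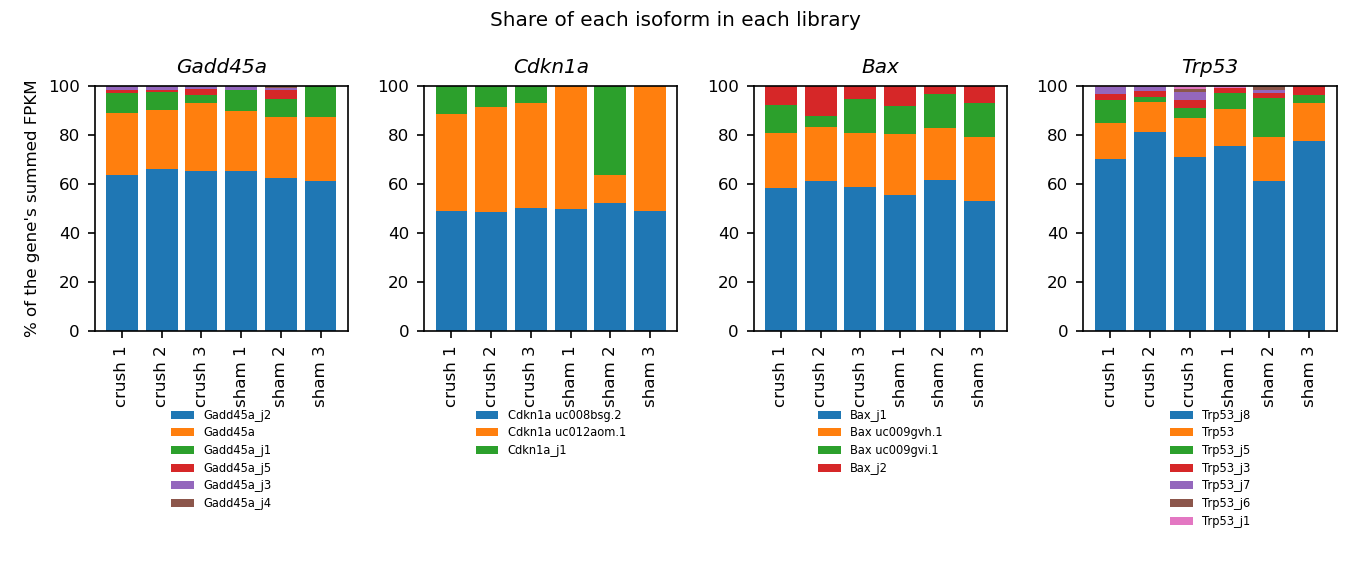
Share of each isoform in the summed FPKM of Gadd45a, Cdkn1a, Bax and Trp53 (y axis, percent) in each of the 6 libraries (x axis, crush left of sham). The Gadd45a shares look alike in all libraries, and in Cdkn1a only sham 2 of the sham libraries has a visible share, 36.4%, of Cdkn1a_j1.

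Isoform by isoform, 21 of the 30 reached a mean of 1 FPKM and were tested, and limma called 0 of them, against 0.0613% of all 24485 isoforms. At an unadjusted p under 0.05 there were 8 of the 21, against 9.12% of all isoforms. The smallest adjusted p was 0.111, for Cdkn1a uc008bsg.2 (log2 difference 0.94). Of the 21 differences 17 were positive. In the test of isoform use 0 of the 6 genes with at least 2 tested isoforms passed (limma diffSplice, each adjusted p = 1), against 0.445% of all genes tested. The authors' deposited table, whose comparison uses group estimates, gave a test for 16 of the 30 isoforms and a q-value under 0.05 for 6, against 15.1% of all 25544 isoforms given a test there. The 6 were Btg2, Gadd45g, Gadd45g_j1, Gadd45a, Gadd45a_j2 and Gadd45a_j5. For full-length Gadd45a it gave a log2 fold change of 1.48 and for Gadd45g of 0.95 (q = 1.02e-13), and for Gadd45b -0.24 (q = 0.507). Its test status was FAIL for the 12 isoforms of Cdkn1a, Mdm2 and Bax. For Gadd45a_j1 the authors' deposited table gave 0.812 FPKM in crush and 2.10 in sham (log2 fold change -1.37, q = 0.180), although the libraries had 4.75 to 8.60 FPKM in crush and 4.01 to 4.86 in sham, so the direction of this isoform is not settled.

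The rest of the pathway, in 10 lists chosen from general knowledge, passed about as often as all genes did. Each gene counted once, 2 of 102 tested rose and 2 fell, which is 3.92%, against 3.78% of all genes tested. Among 26 p53 target genes tested other than the 8 genes, 1 rose, 0 fell and 25 did not pass, with a median log2 difference of 0.01, against -0.02 over all genes tested. The riser was Pmaip1, which encodes the BH3-only death protein Noxa, at 2.13, 2.003 and 2.16 FPKM in crush 1 to 3 and 1.27, 1.17 and 1.096 FPKM in sham 1 to 3. Its groups were apart in every library (log2 change 0.51, limma, adjusted p = 0.0188). Pmaip1 lost its call without crush 1, 2 or 3 and without sham 1 or 3, when 0 targets rose. Without sham 2, 2 targets rose and 1 fell. In that run 4.94% of all genes tested rose and 9.55% passed in either direction. Nor did Pmaip1 pass from reference isoforms only (limma, adjusted p = 0.405) or with the replicate block (limma, adjusted p = 0.109). Among 11 regulators and relatives of p53, 0 passed (median 0.13), and the smallest adjusted p there was that of the ubiquitin ligase Rchy1, with 17.6 ± 1.45 FPKM in crush and 15.5 ± 0.534 in sham (limma, adjusted p = 0.308). Rchy1 shares 40.1% of its exon bases with Thap6 on the opposite strand, which stood at 0.451 to 0.681 FPKM in crush and 0.537 to 0.623 in sham.

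Genes of cell death showed a few single changes. Of 8 caspase and apoptosome genes, all had a positive log2 difference (median 0.21), 1 rose, 0 fell and 7 did not pass (limma), and 0 rose without crush 1 or without sham 3. Of 12 BCL2 family genes 1 rose, Pmaip1 again, 1 fell and 10 did not pass (median -0.11). The one that fell was Bnip3, a BH3-only protein of mitochondrial turnover, at 25.1 ± 0.125 FPKM in crush and 31.8 ± 1.23 in sham (log2 change -0.33, limma, adjusted p = 0.0353). Bnip3 shares 24.2% of its exon bases with Ppp2r2d on the opposite strand. Ppp2r2d stood at 28.7 to 33.7 FPKM in crush and 29.2 to 32.5 in sham, so the value of Bnip3 is uncertain. The call of Bnip3 was lost with upper-quartile or quantile scaling, with the replicate block and with fragments in place of FPKM. It was also lost without each of the 6 libraries but sham 2.

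Among other inhibitors of growth, 0 of 6 CDK inhibitors other than Cdkn1a passed (median 0.09). The smallest adjusted p was that of Cdkn3, a phosphatase that acts on cyclin-dependent kinases, with 3.34 ± 0.431 FPKM in crush and 2.41 ± 0.518 in sham (limma, adjusted p = 0.223). Cdkn3 shares 12.1% of its exon bases with Cnih on the opposite strand, which stood at 110 to 117 FPKM in crush and 105 to 126 in sham, so its value is uncertain. Of the 3 relatives of Btg2 tested, 0 passed, and Btg1, the closest in sequence, had 25.7 ± 0.739 FPKM in crush and 22.2 ± 2.19 in sham (limma, adjusted p = 0.257). Of 9 other genes named for growth arrest or DNA damage, 0 rose and 1 fell. It was Gas6, a ligand of TAM receptor kinases, with 53.2 ± 3.92 FPKM in crush and 71.0 ± 3.76 in sham (log2 change -0.41, limma, adjusted p = 0.0431). Its call was lost from reference isoforms only, with the replicate block and without each of the 6 libraries but sham 2. Of 14 GADD45 partners and p38 and JNK pathway kinases 0 passed (median -0.06). Mapk14, which encodes p38 alpha, came closest, at 26.1 ± 0.855 FPKM in crush and 21.1 ± 0.358 in sham (log2 difference 0.29, limma, adjusted p = 0.0504). It passed with a filter at a mean of 5 FPKM, with upper-quartile or quantile scaling, with array weights and without sham 2.

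Genes of cell division were scarce and 0 of 13 tested passed (median 0.01), while 9 of the 22 in the table were under 1 FPKM. The smallest adjusted p was that of the replication helicase subunit Mcm6, with 3.40 ± 0.291 FPKM in crush and 2.58 ± 0.250 in sham (limma, adjusted p = 0.136). Mki67, the Ki-67 proliferation marker, named after its values were seen, had 0.0278 to 0.0788 FPKM in crush and 0.0132 to 0.136 in sham. Of 7 D cyclins, their kinases and retinoblastoma and E2F genes 0 passed (median -0.06). Cyclin D1 (Ccnd1) had 5.97 ± 0.289 FPKM in crush and 6.71 ± 0.501 in sham (limma, adjusted p = 0.402), and 78.0% of its exon bases are shared with Oraov1 on the opposite strand. Oraov1 stood at 18.5 to 19.6 FPKM in crush and 17.2 to 19.9 in sham, so the value of Ccnd1 is uncertain. Over all lists the groups did not overlap for 37 of the 102 genes, or 36.3%, against 26.3% of all genes tested. By list they did not overlap for 9 of 26 p53 targets, 2 of 11 p53 regulators, 2 of 6 CDK inhibitors, 1 of 3 relatives of Btg2, 8 of 12 BCL2 family genes and 3 of 8 caspase and apoptosome genes. The number was 7 of 14 among GADD45 partners, 4 of 9 among the other genes named for growth arrest or damage, 3 of 13 among genes of cell division and 0 of 7 in the D cyclin list.

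**Figure D5:**
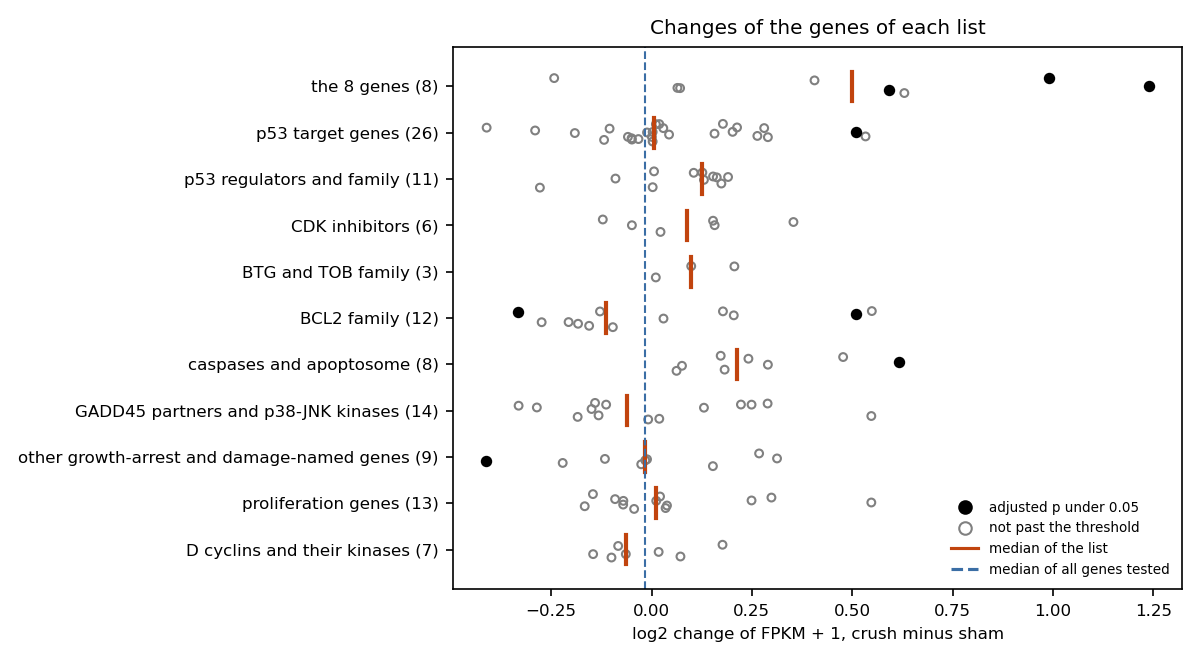
Log2 change of FPKM + 1, crush minus sham (x axis), of each tested gene (points, filled where the adjusted p is under 0.05) in the 8 genes and in 10 lists (y axis, number tested in brackets); orange bars give each list's median and the dashed line that of all genes tested. The list medians lie between -0.11 and 0.21, and the median of the 8 genes is 0.50.

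Over the 6 libraries, the genes whose log2 level was most like that of Gadd45a, of 12288 compared, were Pfkfb4, Sema4f, Tbc1d20, Igfbp3 and Gap43, with Pearson r of 0.997 to 0.998. For Cdkn1a they were Rnase4, Stmn4, Esyt1, Itga7 and Srxn1, with r of 0.997. Among the 8 genes, Cdkn1a was the one most like Gadd45a (r = 0.987), followed by Btg2 (0.947) and Gadd45g (0.920), and Gadd45b ran the other way (-0.816). These 6 points share the split into groups, which alone brings genes that differ between groups close together, so the values only describe the libraries.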

How the data were processed

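RNA was measured in 6 poly-A libraries made from 500 ng of RNA each, barcoded, mixed and run on 3 lanes, per the labels' protocols. The authors' deposited table gives FPKM per isoform and library, with intervals, group estimates, and a log2 fold change score, p-value and q-value per isoform. TopHat 1.3.2, Cufflinks 1.1.0, Cuffdiff 1.2.1 and build mm9 are named, per the submitters' processing notes, without a role or order. The deposited exon file gave positions and overlaps. Low FPKM values showed no steps from which reads could be recovered, so depth is unknown. All 30 isoforms of the 8 genes had status OK in every library.

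FPKM was summed over the isoforms of a gene name without its suffix. A mean FPKM of 1 over the 6 libraries was needed to enter a test, made with limma 3.58.1 (R 4.3.3) on the log2(FPKM + 1) scale (trend, two-sided, Benjamini-Hochberg over all tested, threshold 0.05), isoform use with diffSplice, and ratios by exact permutation. The tests were tested on simulated data; with 200 genes changed by 1 on the log2 scale the gene test recovered 97.0%, and the isoform test 16.5%. With unequal spread among the isoforms of a gene diffSplice made too many calls. Python 3.11.15 and matplotlib 3.10.9 made tables and figures. Alternatives were the pseudocount (0.1), the filter (none, 5), scaling, reference isoforms only, array weights, a replicate block and leaving out each library; fragments in place of FPKM were added after seeing the data.

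The genes and lists were chosen with earlier results of these data known. Named are the 8 genes, their isoforms, genes sharing their exons, up to 2 risers and 2 fallers of each list, by adjusted p (where none passed, the gene whose adjusted p was smallest), and the 5 genes most like Gadd45a and Cdkn1a; Atf3 checks the injury label. Listed names that are not in the table were not analysed here, and 1 gene that the rule names is not reported here.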

Additional observations from a re-analysis of the deposited data

How the results depend on the processing

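The number of genes called was 464, with 293 higher and 171 lower after crush. It was 295 (165 higher) with a filter at a mean of 5 FPKM, 67 (52 higher, 15 lower) from reference isoforms only, 1429 (734 and 695) with array weights, which gave sham 2 a weight of 0.162, and 50 (45 and 5) with the replicate block. With 1 library left out it ranged from 53 to 1174, the higher ones from 43 to 607 and the lower ones from 10 to 567. Of the 8 genes, 3 were called, against 1 from reference isoforms only, 0 with the replicate block and 0 to 4 with 1 library left out.

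Gadd45a did not pass from reference isoforms only (1.21, adjusted p = 0.0667) or with the replicate block (1.24, adjusted p = 0.0970), and ranged from 1.09 to 1.36 with 1 library left out. Btg2 did not pass in either (0.59 in both, adjusted p = 0.0741 and 0.113; 0.53 to 0.67 with 1 library left out), and Cdkn1a did not pass with the block (0.99, adjusted p = 0.0659; 0.92 to 1.09 with 1 library left out). Fewer genes are tested from reference isoforms only, and fewer degrees of freedom are left with the block; what else moved the calls was not tested. Gadd45g passed with array weights (0.67; 0.48 to 0.84 with 1 library left out). Trp53 turned negative from reference isoforms only (-0.063), and ranged from -0.015 to 0.11 with 1 library left out. Bax did likewise (-0.14; range -0.062 to 0.34). The signs of Gadd45b, Gadd45g, Cdkn1a, Btg2, Gadd45a and Mdm2 and of the 6 ratios held in every alternative run.

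Of the isoforms, with array weights Bax uc009gvh.1 turned positive (0.055) and Trp53_j8 was at -0.00061. With 1 library left out the log2 difference ran from -0.14 to 0.12 for Bax uc009gvh.1, from -0.67 to 0.013 for Bax uc009gvi.1, from -0.039 to 0.46 for Bax_j1, from -0.13 to 0.53 for Gadd45g_j1, from -0.10 to 0.26 for Mdm2_j4 and from -0.15 to 0.017 for Trp53 uc007jqn.2. Whether the replicate numbers pair the libraries is not known. Deviations of same-numbered libraries from their group means correlated at 0.372, -0.309 and -0.486 across genes, and crush 1 correlated best with sham 3 (0.419). The highest correlation was that of crush 3 with sham 2 (0.590). The deviations within a group depend on each other through their shared mean, so these values cannot tell whether libraries were paired. Taken over all libraries of a group, the authors' deposited intervals of the low genes Btg2 and Gadd45b overlap between the groups. Library by library, the Btg2 interval of crush 1 (4.08 to 7.34 FPKM) lies above those of sham 1 (up to 3.997) and sham 3 (up to 3.91). All other pairs of a crush and a sham library overlap for both genes.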
